A study of Homo sapiens with 3 samples.

Results

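The gene expression of LNCaP cells kept in conditioned medium from periprostatic adipose tissue (PPAT-CM) is compared here with that of LNCaP cells kept in control-CM. LNCaP is an established human prostate cancer cell line of luminal type that depends on androgens for growth. The series held 3 libraries, 1 each for control-CM, PVAT-CM and PPAT-CM, and the comparison uses 2 of them. The cells of all 3 groups were LNCaP without a further genetic change named in the labels. They spent 24 h in complete medium, and then 72 h in serum-free medium made up with 50% of the conditioned medium and 2% fetal bovine serum. The labels mark PPAT-CM as tumor and PVAT-CM as normal, do not expand PVAT, and do not say what control-CM had been in contact with, or how many donors gave tissue. Members were the genes whose raw counts averaged 50 or more across the 3 libraries, which were 12256 of the 58884 gene rows of the deposited table, and 10970 of them were protein-coding.

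Adipose tissue beside the prostate releases fatty acids, cytokines of the interleukin-6 family, growth factors and hormones, and medium conditioned by it carries a mixture of these to cells in culture. Luminal prostate cells read such signals through cytokine receptors that activate STAT factors, through Wnt and BMP receptors, and through receptors coupled to G proteins. Androgens set the secretory programme of these cells, which includes the kallikrein proteases, prostatic acid phosphatase and large amounts of glycosylated secreted protein. Making that protein draws on sugar nucleotides, the endoplasmic reticulum and NADPH, and the gene lists below follow these systems.

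Each medium had 1 library, so no difference was tested, and "higher" and "lower" below compare libraries and not conditions. Raw counts are given in the order control-CM, PVAT-CM, PPAT-CM. Fold differences are PPAT-CM against control-CM after scaling by trimmed mean of M values (TMM), under which 1 count in control-CM was worth as much as 1.21 counts in PPAT-CM. The range in parentheses after a fold is its exact 95% interval, which covers counting error only and no spread between cultures. PVAT-CM counts stand beside the others as values, since both adipose media share the control library.

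Total counts were 14174241 to 16965584 per library. Genes of the mitochondrial chromosome took 15.5% of counts in PPAT-CM, 21.1% in PVAT-CM and 30.8% in the control library, and the part of this in the ratios of other genes was not tested. The label was checked against luminal prostate markers. HOXB13 (5974, 5259 and 6940 counts), FOXA1 (9676, 9566 and 10763), FOLH1 (15679, 14534 and 17615) and KRT8 (5630, 5261 and 6711) were 1.02-fold to 1.09-fold lower in PPAT-CM than in control-CM, and all 10 of the luminal markers were measured. Of 18 leukocyte markers none reached the minimum, their counts summed to 32, 34 and 49, and PTPRC, CD3E and MS4A1 were at 0 in all 3 libraries. Of 16 adipocyte markers 7 were at 0 in all 3 libraries, among them ADIPOQ, LEP and FABP4, which define adipocytes. The 16 summed to 997, 1038 and 1426 counts, with ADIPOR2 the largest at 651, 664 and 954. PLIN1 (13, 27 and 89 counts) and GPD1 (27, 5 and 47) were highest in PPAT-CM. CFD (133, 170 and 111), LIPE (17, 7 and 14) and PLIN4 (34, 19 and 33) were lower there than in control-CM. DCN, PDGFRA and COL1A2 were at 0 in all 3, as were 7 of the 12 fibroblast markers, which summed to 792, 372 and 534. Endothelial CDH5 and KDR were also at 0, and the 10 endothelial markers summed to 757, 732 and 896. In bulk RNA, fewer cells of a type and less RNA per cell cannot be told apart.

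Most genes lay close to even between the libraries. The median log2 ratio was 0.03 (SD 0.60 over genes), and 79.3% of the genes lay within 1.5-fold. At least 2-fold higher in PPAT-CM were 482 genes (3.93%), and at least 2-fold lower were 336 (2.74%). With 50 or more counts in both libraries, 355 of 11850 genes passed 2-fold on the higher side (3.00%) and 256 on the lower side (2.16%). At the 1.5-fold limit used for gene lists below, 1475 genes were higher (12.0%) and 1068 lower (8.71%). The split depended on the scaling, with 905 genes higher and 177 lower by 2-fold when total counts were used without TMM, which moved the median by 0.24. The 1.5-fold counts were then 2949 higher and 538 lower, and with upper quartile factors 1194 higher and 1345 lower. Median log2 ratios of the 86 lists with at least 4 measured members kept a positive sign under every scaling in 46 lists and a negative sign in 3, and for the other 37, whose medians lay between -0.19 and 0.07, no direction is given.

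**Figure D1:**
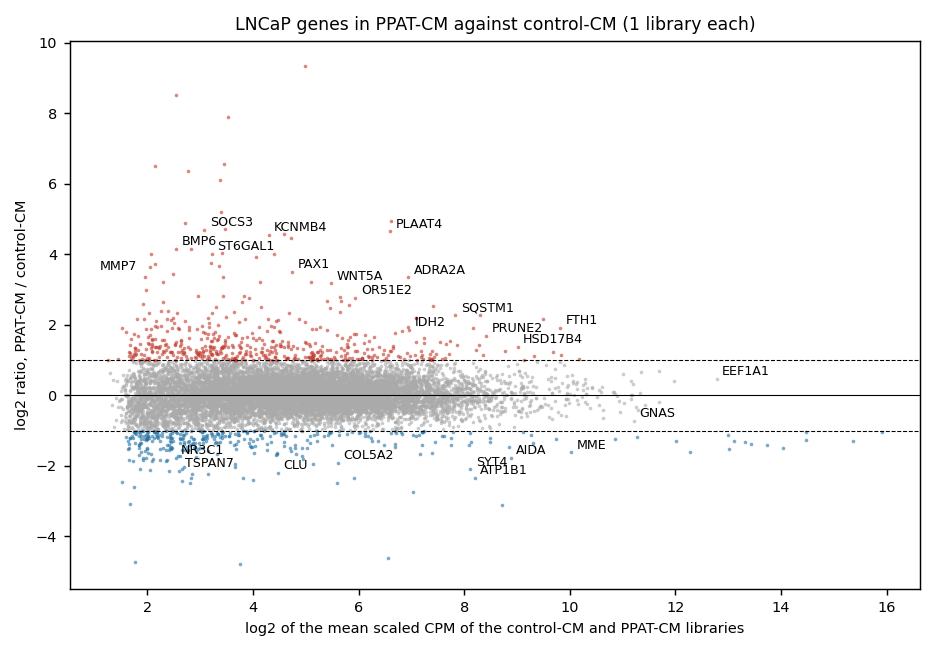
Log2 ratio of PPAT-CM to control-CM (y axis) against the log2 of the mean scaled CPM (counts scaled to a library of 1000000) of these libraries (x axis), 1 point per member gene. Red points are the 482 genes at least 2-fold higher in PPAT-CM and blue points the 336 at least 2-fold lower, with dashed lines at 2-fold, and named genes such as PLAAT4 and ATP1B1 stand apart from the grey band.

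Among protein-coding genes with at least 50 counts in both libraries, the highest ratios outside TXNIP belonged to enzymes, receptors and developmental factors. PLAAT4, a phospholipase-like tumour suppressor known to be induced by retinoids and interferons, had 113, 301 and 3444 counts, 25.1-fold higher (20.8 to 30.6); the gene lies on chromosome 11 at 63536809 to 63546462 of GRCh38. PVAT-CM lay between the other libraries and far nearer to control-CM. PAX1, a developmental transcription factor, had 65, 77 and 905 counts, 11.5-fold higher (8.92 to 15). AKAP5, a scaffold that holds protein kinase A and calcineurin at the membrane, was 9.34-fold higher (7.62 to 11.6), from 101 and 210 to 1144 counts. BACE2, an aspartic protease, had 51, 63 and 580 counts (9.38-fold, 7.04 to 12.7). In each of PAX1 and BACE2 the control-CM and PVAT-CM counts were close and the PPAT-CM library alone stood high. CD24, a sialylated surface protein whose reads may be shared with its pseudogene copies, had 174, 255 and 1350 counts (6.4-fold, 5.46 to 7.54). GSTA1, a glutathione transferase with near-identical neighbours in its cluster, had 57, 106 and 437 counts (6.32-fold, 4.79 to 8.49).

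The lowest ratios included a pump subunit, a chaperone and genes of neural type. ATP1B1, the beta subunit that brings the sodium pump to the membrane, had 7430, 6483 and 1784 counts and was 5.05-fold lower (4.79 to 5.32); it lies on chromosome 1 at 169105697 to 169132722. ATP1B3, another beta subunit, chosen after its value was seen, had 1818, 1794 and 2395 counts (1.09-fold higher, 1.02 to 1.16). CLU, the secreted chaperone clusterin, had 551, 418 and 146 counts (4.58-fold lower, 3.81 to 5.53). RIPOR2, which acts in cell polarity and migration, had 410, 332 and 93 counts (5.34-fold lower, 4.26 to 6.77), and MID1, a microtubule-bound ubiquitin ligase, had 357, 178 and 85 (5.09-fold lower, 4.01 to 6.53). AIDA, an inhibitor of axin-driven JNK signalling, had 11102, 7013 and 3941 counts (3.42-fold lower, 3.29 to 3.54). APOD, a lipid-binding secreted protein, had 303, 342 and 95 counts (3.87-fold lower, 3.06 to 4.92), and here PVAT-CM was not below control-CM. NRTN, a ligand of the GDNF family, had 143, 75 and 52 counts (3.33-fold lower, 2.41 to 4.67).

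**Figure D2:**
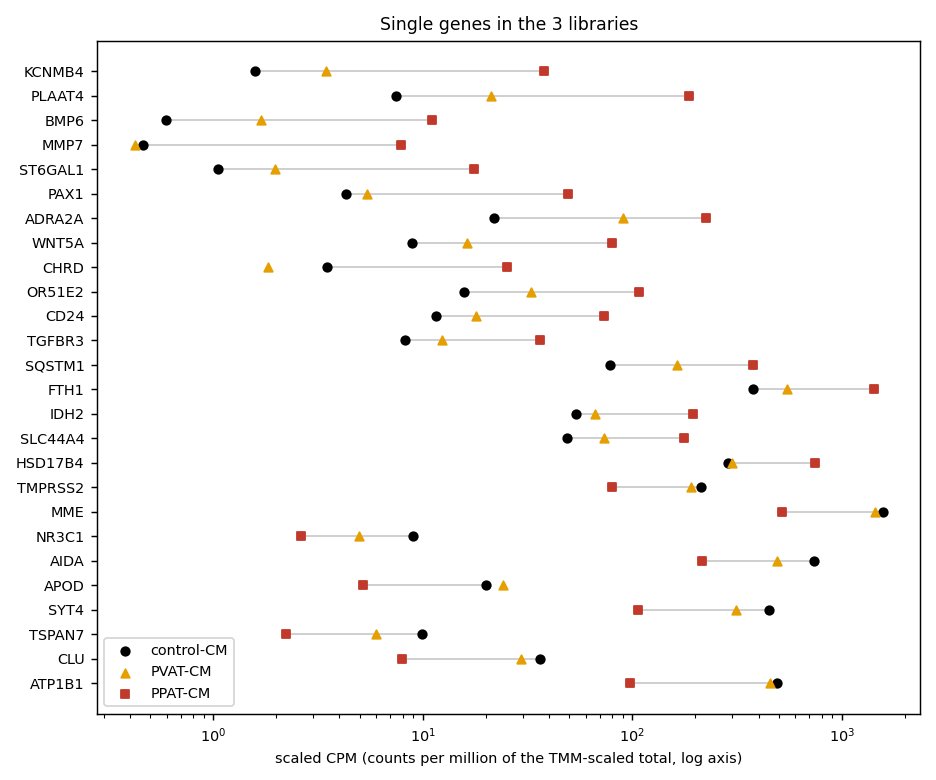
Scaled CPM (log axis) of 26 genes in the control-CM (black circles), PVAT-CM (orange triangles) and PPAT-CM (red squares) libraries, 1 library per medium and no error bars. The red square lies right of the black circle for the 17 genes from KCNMB4 to HSD17B4 and left of it for the 9 from TMPRSS2 to ATP1B1, and the PVAT-CM triangle lies nearer to control-CM than to PPAT-CM for most of them.

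Cytokine receptors differed member by member. Of 28 measured receptors and JAK kinases, 7 were at least 1.5-fold higher (25.0%) and 3 lower (10.7%), with a median log2 ratio of -0.03. Over all genes the shares were 12.0% and 8.71%, so the lower share was near that of genes at large. OSMR, the receptor subunit for oncostatin M, had 108, 189 and 502 counts (3.83-fold higher, 3.11 to 4.77). IL4R and IL13RA1, which pair as the type II receptor for interleukin-4 and interleukin-13, had 76, 90 and 278 counts (3.02-fold, 2.33 to 3.94) and 335, 345 and 955 counts (2.35-fold, 2.07 to 2.67). For each of these 3 receptors PPAT-CM was the highest library. The shared signalling subunit IL6ST had 1298, 1482 and 1963 counts (1.25-fold higher, 1.16 to 1.34), and the interleukin-6 receptor IL6R had 607, 514 and 680 (1.08-fold lower, 0.968 to 1.21). LIFR, the receptor for leukaemia inhibitory factor, had 463, 368 and 289 counts (1.94-fold lower, 1.67 to 2.26), and its ligand LIF had 87, 58 and 57 (1.85-fold lower, 1.31 to 2.63). JAK2 was 1.60-fold lower (1.42 to 1.80), with 641, 685 and 487 counts. IL6ST, IL6R, LIFR and JAK2 were chosen after their values were seen. IL1RN, the interleukin-1 receptor antagonist, had 89, 29 and 38 counts (2.84-fold lower, 1.92 to 4.27), and both adipose media were below control-CM. TSLP was 2.08-fold lower (1.47 to 2.98), and TNFSF13 1.71-fold higher (1.36 to 2.16).

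Promoters of the genes at least 2-fold higher held the interferon-stimulated response element more often than promoters at large. RefSeq promoters, 250 bases before to 50 after each listed gene start, were found for 9511 of the genes, of which 359 passed 2-fold on the higher side and 189 on the lower. The element, read as GAAA, any 2 bases and GAAA on either strand, stood in 8.36% of the higher genes, 3.70% of the lower genes and 3.61% of all. The STAT motif TTCNNNGAA stood in 9.19%, 11.6% and 8.32% in the same order, the AP-1 motif TGANTCA in 9.47%, 8.47% and 6.21%, the NRF2 motif TGACNNNGC in 19.2%, 18.5% and 19.7%, and the C/EBP-ATF motif TGATGNAA in 3.62%, 3.70% and 2.60%. Genes with several starts had more than 1 window, and no share was tested. These are matches of letters and not shown sites of binding.

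**Figure D3:**
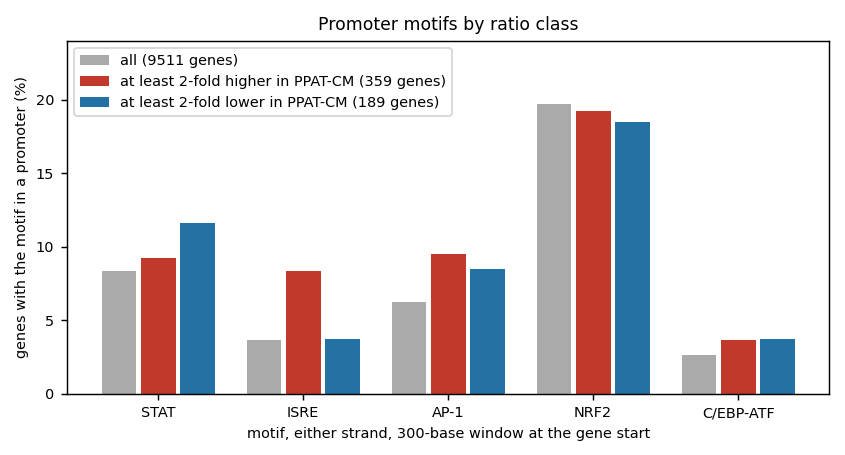
Percent of genes with each motif on either strand in a RefSeq promoter window (y axis, from 0), for all 9511 genes with a promoter (grey), the 359 at least 2-fold higher in PPAT-CM (red) and the 189 at least 2-fold lower (blue). The red bar for the interferon-stimulated response element (ISRE), 8.36%, is above the grey and blue bars at 3.61% and 3.70%, while the NRF2 bars lie between 18.5% and 19.7%.

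Promoter windows of 6 higher genes are shown, GSTA4 by the rule set for the lists and the other 5 chosen after the values were seen, each as the 250 bases before a RefSeq start on GRCh38.p14, 5′ to 3′ on the gene's strand, which was the minus strand in all 6. Capitals mark the motif. IRF1, a transcription factor of the interferon response, had 84, 133 and 320 counts, and its capitals mark the STAT motif ending 116 bases before the start, in chr5:132490774-132491023.
IRF1: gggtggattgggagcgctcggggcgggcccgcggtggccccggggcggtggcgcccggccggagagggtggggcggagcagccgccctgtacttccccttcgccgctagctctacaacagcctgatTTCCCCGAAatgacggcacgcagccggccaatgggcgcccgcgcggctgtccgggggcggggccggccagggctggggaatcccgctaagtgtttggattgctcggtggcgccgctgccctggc
LGALS3BP, a secreted glycoprotein that binds galectin-3, had 208, 376 and 1617 counts, and the capitals mark the interferon-stimulated response element ending 49 bases before the start, in chr17:78979924-78980173.
LGALS3BP: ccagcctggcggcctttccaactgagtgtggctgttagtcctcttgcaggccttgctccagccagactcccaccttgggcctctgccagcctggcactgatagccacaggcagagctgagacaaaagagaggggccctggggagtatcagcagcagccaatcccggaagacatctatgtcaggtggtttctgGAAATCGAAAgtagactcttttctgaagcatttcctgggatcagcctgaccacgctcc
MMP7, the epithelial metalloproteinase matrilysin, had 7, 6 and 145 counts, and the capitals mark the AP-1 motif ending 61 bases before the start, in chr11:102530748-102530997.
MMP7: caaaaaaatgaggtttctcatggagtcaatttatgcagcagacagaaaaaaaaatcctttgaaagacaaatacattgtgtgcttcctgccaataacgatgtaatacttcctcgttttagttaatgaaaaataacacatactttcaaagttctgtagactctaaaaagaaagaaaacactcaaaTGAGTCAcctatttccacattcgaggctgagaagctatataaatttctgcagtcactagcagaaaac
GSTA4, a glutathione transferase for lipid aldehydes, had 857, 1055 and 2654 counts, and the capitals mark the NRF2 motif next to the start, in chr6:52995285-52995534.
GSTA4: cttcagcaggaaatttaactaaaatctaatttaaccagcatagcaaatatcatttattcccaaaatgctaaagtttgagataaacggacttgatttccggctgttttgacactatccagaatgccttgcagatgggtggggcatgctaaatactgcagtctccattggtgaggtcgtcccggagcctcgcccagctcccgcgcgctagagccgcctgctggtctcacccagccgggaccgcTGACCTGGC
XBP1, the factor of secretory cells and of the unfolded protein response, is shown with the ER stress response element. That element stood in 0.158% of all genes with a promoter and in 2 of the 359 higher ones (0.557%), XBP1 among them. Here it ends 34 bases before the start, in chr22:28800570-28800819.
XBP1: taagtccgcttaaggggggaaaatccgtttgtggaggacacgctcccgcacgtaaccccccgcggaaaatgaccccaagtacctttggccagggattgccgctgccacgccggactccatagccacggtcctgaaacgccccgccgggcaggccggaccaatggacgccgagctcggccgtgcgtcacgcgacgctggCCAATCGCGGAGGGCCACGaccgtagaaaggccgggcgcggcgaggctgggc
TXNIP, the thioredoxin-binding alpha-arrestin, is shown with the paired half-sites of the carbohydrate response element, which stood in 0.168% of all genes with a promoter and ends here 72 bases before the start, in chr1:145996580-145996829.
TXNIP: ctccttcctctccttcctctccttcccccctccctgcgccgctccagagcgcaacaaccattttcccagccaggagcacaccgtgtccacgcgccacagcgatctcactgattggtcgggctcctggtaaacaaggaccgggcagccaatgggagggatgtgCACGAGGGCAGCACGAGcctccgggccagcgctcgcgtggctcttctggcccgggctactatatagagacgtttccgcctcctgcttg

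The folds of these genes ran from 2.55 to 31.1. LGALS3BP was 6.41-fold higher (5.55 to 7.44), IRF1 3.14-fold (2.46 to 4.05), MMP7 17.1-fold (8.08 to 43.3) and GSTA4 2.55-fold (2.36 to 2.76). MMP7 was the 1 member at least 1.5-fold higher among 11 measured metalloproteinases, ADAMs and TIMPs, none of which was 1.5-fold lower. It passed the count minimum only through its PPAT-CM count, so its place among the measured genes is not a separate result. Of the carbohydrate-responsive arrestins beside TXNIP, ARRDC4 had 160, 133 and 565 counts (2.91-fold higher, 2.44 to 3.49) and ARRDC3 865, 1085 and 2502 (2.39-fold, 2.21 to 2.58). MLXIPL, the ChREBP factor that binds the carbohydrate response element, was 2.02-fold lower (1.67 to 2.45), with 295, 186 and 177 counts.

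Wnt pathway genes, ordered from ligand to target, did not share a direction. WNT5A, a ligand best known for signalling outside beta-catenin, had 134, 233 and 1477 counts, 9.09-fold higher (7.61 to 10.9). It lies on chromosome 3 at 55465715 to 55490539. WNT10B, a ligand of the beta-catenin branch, had 71, 89 and 253 counts (2.94-fold higher, 2.25 to 3.88). Per kilobase of exon, scaled CPM of WNT5A was 1.19 in control-CM and 10.9 in PPAT-CM. LEF1, a transcription partner of beta-catenin, had 74, 82 and 217 counts (2.42-fold, 1.85 to 3.19). AXIN2, a feedback inhibitor and common readout of beta-catenin signalling, had 154, 126 and 70 counts (2.67-fold lower, 2.00 to 3.59), and LGR4, the R-spondin receptor, 288, 246 and 122 (2.86-fold lower, 2.31 to 3.57). So 3 named ligands and factors were highest in PPAT-CM, and the feedback gene and the R-spondin receptor were lowest there. Over the list, 7 of 28 measured genes were at least 1.5-fold higher (25.0%) and 2 lower (7.14%), with a median log2 ratio of -0.02. The shares over all genes were 12.0% and 8.71%.

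BMP6 and its co-receptors and inhibitors showed large single differences in a list that was otherwise near even. BMP6, a ligand of the bone morphogenetic protein family that also sets hepcidin in liver, had 9, 24 and 204 counts (18.7-fold higher, 9.66 to 41.5). CHRD, the secreted antagonist chordin, had 53, 26 and 461 counts (7.17-fold, 5.39 to 9.72), and the PVAT-CM count was the lowest of the 3. TGFBR3, the co-receptor betaglycan, had 124, 176 and 670 counts (4.46-fold, 3.67 to 5.44), BMPR1B, a type I BMP receptor, 559, 634 and 1103 (1.63-fold, 1.47 to 1.81), and SMAD6, an inhibitory SMAD, 80, 95 and 169 (1.74-fold, 1.33 to 2.30). BAMBI, a decoy receptor, had 498, 431 and 283 counts (2.13-fold lower, 1.84 to 2.48). CHRD was not in the TGF-beta and BMP list and was named for its high ratio alone. In that list, 4 of 26 measured genes were at least 1.5-fold higher (15.4%) and 1 lower (3.85%), with a median log2 ratio of -0.02. Over all genes the shares were 12.0% and 8.71%, so the higher share was near that of genes at large. BMP6, 1 of the 4, passed the count minimum only through PPAT-CM.

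Of 19 genes of the Hippo pathway and YAP targets, 4 were higher (21.1%) and 3 lower (15.8%) by 1.5-fold. The shares over all genes were 12.0% and 8.71%. TEAD4, a DNA-binding partner of YAP, had 50, 58 and 223 counts (3.68-fold higher, 2.70 to 5.11), and the scaffold AMOT 139, 110 and 299 (1.77-fold, 1.45 to 2.19). Lower were CCN1, a matricellular YAP target, with 368, 232 and 203 counts (2.20-fold lower, 1.85 to 2.62), and AMOTL2 with 69, 62 and 40 (2.09-fold lower, 1.40 to 3.17). In the Notch list 1 of 17 was higher (5.88%) and 3 lower (17.6%). Among the lower were the ligands JAG1 (463, 364 and 322 counts, 1.74-fold lower, 1.51 to 2.02) and JAG2 (3666, 2729 and 2928, 1.52-fold lower, 1.45 to 1.59). NOTCH1, a receptor for them, had 432, 438 and 798 counts (1.52-fold higher, 1.35 to 1.72). MAP kinase feedback was also split, with DUSP5, a nuclear ERK phosphatase, 2.32-fold higher (1.77 to 3.07) from 73 and 51 to 205 counts, and SPRY1, an inhibitor of receptor tyrosine kinase signalling, 2.82-fold lower (2.15 to 3.73) at 179, 124 and 77 counts.

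ADRA2A and OR51E2, receptors coupled to G proteins, were named for ratios among the 15 highest, and no list of such receptors was counted. ADRA2A, an adrenoceptor that lowers cyclic AMP, had 332, 1282 and 4110 counts, 10.2-fold higher (9.13 to 11.5), with both adipose media above control-CM. OR51E2, an olfactory-type receptor known for its expression in prostate, had 239, 469 and 1968 counts (6.79-fold, 5.94 to 7.80). GNAS, the stimulatory G protein subunit and the largest loss in CPM among nuclear protein-coding genes, had 44778, 35352 and 32852 counts (1.65-fold lower, 1.63 to 1.68). Of 16 RGS proteins and phosphodiesterases, which end G protein signals and break down cyclic nucleotides, 4 were at least 1.5-fold lower (25.0%) and 2 higher (12.5%). Over all genes 8.71% were lower and 12.0% higher. The list median of -0.19 changed sign with total counts, so it gives no direction. RGS2 had 75, 53 and 25 counts (3.64-fold lower, 2.29 to 5.97), RGS11 686, 414 and 293 (2.84-fold lower, 2.47 to 3.27), and PDE10A 2266, 1710 and 1057 (2.60-fold lower, 2.41 to 2.80). In these 3 genes the order was control-CM, PVAT-CM, PPAT-CM from high to low on the scaled CPM.

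Ion channels differed in auxiliary and store-operated subunits. KCNMB4, a regulatory subunit of the large-conductance calcium-activated potassium channel, had 24, 49 and 694 counts (23.9-fold higher, 15.9 to 37.5). The pore gene of that channel, KCNMA1, chosen after its value was seen, had 336, 352 and 286 counts (1.42-fold lower, 1.21 to 1.67). The pair of store-operated calcium channel genes ORAI1 and ORAI3 stood apart, with 89, 131 and 355 counts for ORAI1 (3.29-fold higher, 2.60 to 4.20) and 325, 266 and 168 for ORAI3 (2.35-fold lower, 1.94 to 2.84). ITPR2, a calcium release channel of the endoplasmic reticulum, was 2.33-fold higher (1.82 to 3.00), and TRPC1 2.14-fold lower (1.59 to 2.90). TRPM8, the cold-sensing channel induced by androgens, had 31, 41 and 83 counts (2.21-fold higher, 1.45 to 3.45). Of 26 potassium, sodium and chloride channel genes 6 were at least 1.5-fold higher (23.1%) and 2 lower (7.69%). Of the 6, KCNMB4 and KCNK5 (44, 47 and 128 counts) passed the count minimum only through PPAT-CM, which raised the higher share. Of 31 calcium genes 4 were higher (12.9%) and 2 lower (6.45%), near the shares over all genes, 12.0% and 8.71%. TRPM8 also passed the minimum only through PPAT-CM.

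Krüppel-like and ETS factors held larger shares of higher genes than all genes together. Of 12 measured Krüppel-like factors 6 were at least 1.5-fold higher (50.0%, against 12.0% over all genes) and 1 lower, with a median log2 ratio of 0.65. KLF4 had 52, 96 and 264 counts (4.19-fold, 3.10 to 5.75), KLF5 24, 53 and 90 (3.09-fold, 1.95 to 5.08), and KLF10, a TGF-beta inducible member, 181, 275 and 645 (2.94-fold, 2.49 to 3.49). For all 3 the PVAT-CM count was also above that of control-CM. ETS factors had 4 of 16 higher and 1 lower, with a median of 0.34. ELF3, the epithelial member, had 547, 597 and 1851 counts (2.79-fold, 2.54 to 3.08), whereas SPI1, a myeloid factor, had 89, 79 and 31 (3.48-fold lower, 2.29 to 5.42). SOX9, a factor of prostate development, had 499, 461 and 1965 counts (3.25-fold higher, 2.94 to 3.59).

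Both corticosteroid receptors were lower while the retinoid receptor RARA was higher. The glucocorticoid receptor NR3C1 had 136, 71 and 48 counts (3.43-fold lower, 2.45 to 4.88) and the mineralocorticoid receptor NR3C2 132, 122 and 91 (1.76-fold lower, 1.34 to 2.32). RARA had 385, 438 and 961 counts (2.06-fold higher, 1.83 to 2.32). Of 20 measured nuclear receptors 3 were at least 1.5-fold lower, and RARA and NR2F2 were the 2 that were higher.

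Androgen-regulated genes went both ways. Of 35 measured 11 were at least 1.5-fold higher (31.4%) and 8 lower (22.9%), and both shares were above those over all genes, 12.0% and 8.71%. Lower were the serine protease TMPRSS2 (3235, 2721 and 1477 counts, 2.66-fold, 2.50 to 2.83), the kallikrein KLK2 (740, 646 and 348, 2.58-fold, 2.27 to 2.94) and, chosen after its value was seen, KLK4 (7741, 6355 and 3770, 2.49-fold, 2.39 to 2.59). Higher were the lipid phosphatase PLPP1 (468, 591 and 1480 counts, 2.61-fold, 2.35 to 2.90) and, chosen after their values were seen, the elongation factor ELL2 (188, 229 and 531, 2.33-fold, 1.97 to 2.77) and prostatic acid phosphatase ACP3 (487, 501 and 1282, 2.17-fold, 1.95 to 2.42). GATA2, a zinc finger transcription factor of luminal prostate cells, had 7836, 5812 and 5369 counts (1.77-fold lower, 1.71 to 1.83). MME, the cell surface peptidase neprilysin, had 23818, 20531 and 9476 counts (3.05-fold lower, 2.98 to 3.12), and PVAT-CM stayed near control-CM.

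Of 12 measured enzymes of androgen metabolism 3 were at least 1.5-fold higher (25.0%) and 4 lower (33.3%), with a median log2 ratio of 0.12. The shares over all genes were 12.0% and 8.71%. HSD17B4, a peroxisomal enzyme that inactivates oestradiol and oxidises fatty acids, had 4344, 4246 and 13708 counts (2.60-fold higher, 2.52 to 2.69). SULT2B1, a hydroxysteroid sulfotransferase, was 1.98-fold lower (1.65 to 2.36) and STS, the sulfatase that reverses such a step, 1.83-fold higher (1.40 to 2.41). The hydroxysteroid dehydrogenase HSD17B14 was 1.86-fold lower (1.60 to 2.17). UGT2B15, which glucuronidates androgens, was 1.65-fold lower (1.47 to 1.86), and UGT2B17, named after its value was seen, 1.64-fold lower (1.56 to 1.73); their sequences are alike, and reads may have been split between them. SRD5A1, a steroid reductase, also named after its value was seen, was 1.58-fold higher (1.41 to 1.77). Of 14 measured prostate surface antigens 4 were higher (28.6%) and none lower by 1.5-fold, with a median log2 ratio of 0.34. SLC44A4, a choline transporter and antibody target, had 742, 1039 and 3233 counts (3.59-fold, 3.32 to 3.90), and NECTIN4 105, 155 and 327 (2.57-fold, 2.06 to 3.23). Of 6 measured neuroendocrine markers 5 were lower (83.3%) and 1 higher, with a median of -0.87. SYT4, a vesicle protein, had 6831, 4466 and 1941 counts (4.27-fold lower, 4.06 to 4.49), and neurotensin, NTS, 29366, 23409 and 22819 (1.56-fold lower, 1.53 to 1.59). DDC, the decarboxylase that makes dopamine and serotonin, was the exception at 5641, 5923 and 13728 counts (2.01-fold higher, 1.95 to 2.07). CHGB and STMN2 were at 0 in all 3 libraries.

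**Figure D4:**
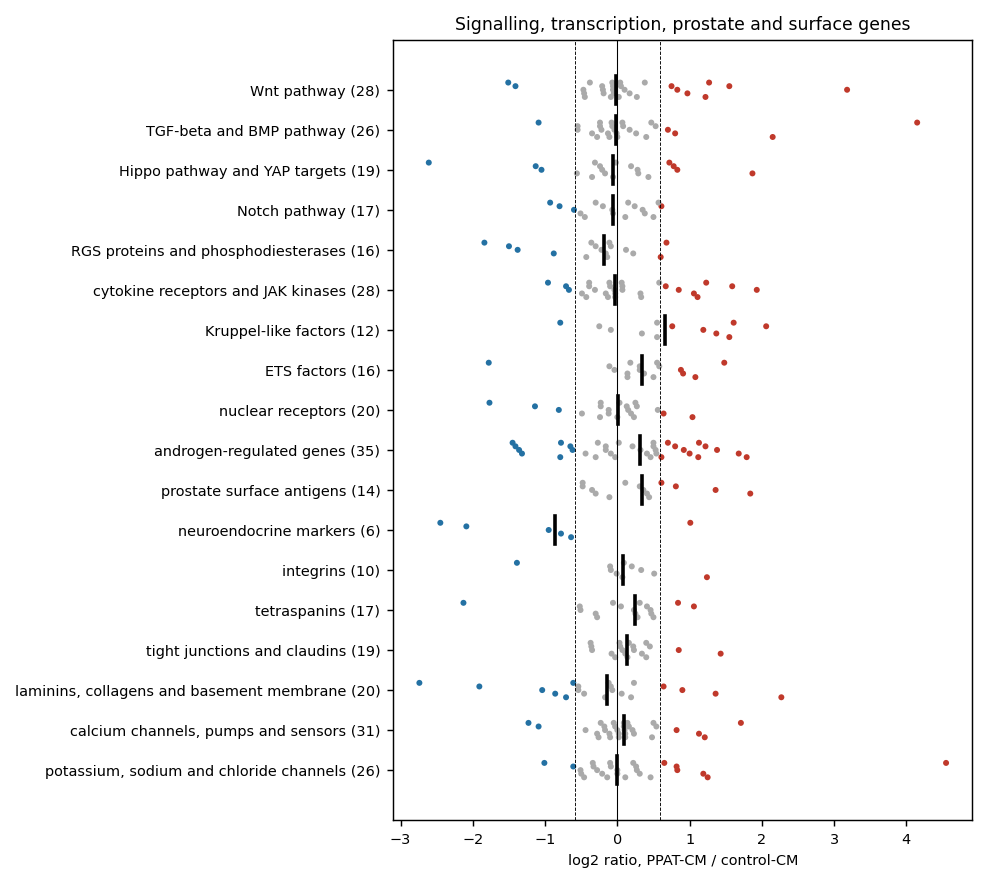
Log2 ratio of PPAT-CM to control-CM (x axis) for the measured members of 18 gene lists (rows, number measured in parentheses), 1 point per gene, with the list median as a black bar and dashed lines at 1.5-fold. Red points are at least 1.5-fold higher and blue points at least 1.5-fold lower; the Krüppel-like factors have their median at 0.65 and the neuroendocrine markers at -0.87, while the Wnt and TGF-beta lists have medians of -0.02 with single genes far to the right.

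Adhesion receptors and matrix genes went both ways. ITGB4, the integrin subunit of hemidesmosomes, had 141, 68 and 65 counts (2.63-fold lower, 1.95 to 3.58), and ITGAV, which binds fibronectin and vitronectin, 312, 477 and 897 (2.37-fold higher, 2.08 to 2.71). Of 20 laminins, collagens and basement membrane genes 4 were higher (20.0%) and 6 lower (30.0%), against 12.0% and 8.71% over all genes. COL5A2 had 1173, 348 and 379 counts (3.75-fold lower, 3.34 to 4.22), with both adipose media low, and COL12A1 2991, 2576 and 1765 (2.05-fold lower, 1.94 to 2.18). COL27A1, a cartilage-type collagen, had 115, 67 and 359 counts (2.58-fold higher, 2.08 to 3.21). PCDH1, an epithelial protocadherin, had 80, 125 and 554 counts (5.71-fold higher, 4.51 to 7.31). TSPAN7, a tetraspanin of neural and endocrine cells, had 150, 85 and 41 counts (4.44-fold lower, 3.12 to 6.43), and CALD1, the actin-binding caldesmon, 11269, 7960 and 6687 (2.04-fold lower, 1.98 to 2.11). Alpha tubulin genes were higher in 4 of 5 by at least 2-fold (TUBA1B 132, 115 and 613 counts, 3.83-fold, 3.17 to 4.66), but these genes are near-identical and their counts are uncertain.

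Enzymes that make NADPH stood on the higher side. Of 13 measured genes of the pentose phosphate pathway and NADPH supply, 5 were at least 1.5-fold higher (38.5%) and none lower, with a median log2 ratio of 0.43. IDH2, the mitochondrial NADP-dependent isocitrate dehydrogenase, had 813, 945 and 3571 counts (3.62-fold higher, 3.36 to 3.91), and PPAT-CM alone stood high. TKT and TALDO1, which carry the non-oxidative branch, had 2376, 2907 and 5447 counts (1.89-fold, 1.80 to 1.99) and 1712, 2237 and 3856 (1.86-fold, 1.75 to 1.97). PGD, of the oxidative branch, was 1.67-fold higher (1.57 to 1.77). Among 29 TCA cycle and pyruvate entry genes 6 were higher (20.7%) and 1 lower (3.45%), with a median of 0.19. The shares over all genes were 12.0% and 8.71%. MDH2, malate dehydrogenase, was 1.97-fold higher (1.85 to 2.09), while MPC2, a subunit of the pyruvate carrier, was 1.94-fold lower (1.85 to 2.05) at 3888, 2898 and 2424 counts.

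Hypoxia response genes stood lower as a list, and glycolysis genes went both ways. Of 23 hypoxia response genes 7 were at least 1.5-fold lower (30.4%, against 8.71% over all genes) and 2 higher, with a median log2 ratio of -0.40. The glucose transporter SLC2A1 had 644, 668 and 423 counts (1.85-fold lower, 1.63 to 2.09), the vasodilator peptide ADM 109, 60 and 67 (1.97-fold lower, 1.44 to 2.72), and NDRG1 1082, 1003 and 765 (1.71-fold lower, 1.56 to 1.88). In the glycolysis list 5 of 23 were lower (21.7%) and 3 higher (13.0%), with a median of 0.02. ENO2 (1.94-fold, 1.79 to 2.09), ALDOC (1.74-fold, 1.63 to 1.86) and PKM (1.58-fold, 1.54 to 1.61) were lower and PGAM1 was 1.73-fold higher (1.64 to 1.83). SLC2A1 was counted in both of these lists, and ENO2 also among the neuroendocrine markers.

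Genes that supply and attach sugars were higher more often than genes at large. Of 22 measured genes for sugar nucleotides and the hexosamine pathway 9 were at least 1.5-fold higher (40.9%) and 1 lower, with a median log2 ratio of 0.35. Over all genes 12.0% were higher. GMDS, the first enzyme of GDP-fucose synthesis, had 207, 239 and 676 counts (2.69-fold, 2.30 to 3.16). UAP1, which makes UDP-N-acetylglucosamine and is regulated by androgens, had 1396, 1612 and 3375 (1.99-fold, 1.87 to 2.12), and GNPNAT1, the acetyltransferase before it, 276, 260 and 663 (1.98-fold, 1.72 to 2.29). In all 3 PVAT-CM was nearer to control-CM than to PPAT-CM. Of 24 O-glycosylation and sialylation enzymes 7 were higher (29.2%) and 1 lower, with a median of 0.33. ST6GAL1, the sialyltransferase that caps N-glycans, had 16, 28 and 324 counts (16.7-fold higher, 10.1 to 29.6). It is 1 of the 7 and passed the count minimum only through PPAT-CM. GCNT1, which builds core-2 branches, had 374, 413 and 1107 counts (2.44-fold, 2.17 to 2.75), and the initiating transferase GALNT7 461, 571 and 1372 (2.45-fold, 2.21 to 2.73). Another initiating transferase, GALNT3, had 2299, 1705 and 1022 counts (2.73-fold lower, 2.53 to 2.94). In the secretory pathway SEC11C, a signal peptidase subunit, had 2624, 4347 and 7763 counts (2.44-fold higher, 2.33 to 2.55), and the cargo receptor TMED5 386, 578 and 1147 (2.45-fold, 2.18 to 2.76).

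Enzymes of prostaglandin and leukotriene metabolism stood higher, while the cholesterol list had a median near even. Of 8 measured eicosanoid enzymes 4 were at least 1.5-fold higher (50.0%) and 1 lower, with a median log2 ratio of 0.57. PLA2G2A, a secreted phospholipase, was already abundant and had 7439, 5066 and 21097 counts (2.34-fold higher, 2.28 to 2.40), with PVAT-CM the lowest library. PTGES3, PLAAT3 and ALOX15 were also at least 1.5-fold higher and LTC4S, leukotriene C synthase, was lower at 364, 258 and 162 counts (2.72-fold, 2.26 to 3.30). ABCA1, the cholesterol exporter, had 39, 53 and 175 counts (3.70-fold higher, 2.60 to 5.38) and was the 1 higher gene of the 31 of cholesterol synthesis and uptake, of which 5 were lower (median -0.07), among them TM7SF2 (2.04-fold, 1.94 to 2.14) and NPC1 (1.96-fold, 1.67 to 2.30). ELOVL7, a fatty acid elongase, was 2.48-fold higher (1.93 to 3.23). Of 28 fatty acid oxidation genes 5 were higher (17.9%, against 12.0% over all genes) and none lower, with a median of 0.16. ACAD8, an acyl-CoA dehydrogenase of valine breakdown, had 794, 831 and 2334 counts (2.42-fold, 2.24 to 2.63). Of 28 sphingolipid enzymes 6 were higher (21.4%) and 1 lower, with a median of 0.21. SPHK1, which makes sphingosine phosphate, had 38, 22 and 137 counts (2.97-fold higher, 2.06 to 4.38), and the ceramide synthase CERS2 428, 589 and 1224 (2.36-fold, 2.11 to 2.64). SPHK1 passed the count minimum only through PPAT-CM.

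Single autophagy genes and a share of the peroxide-removing enzymes were higher, while lysosomal hydrolases were near the share over all genes. SQSTM1, the autophagy receptor p62, had 1182, 2321 and 6938 counts (4.84-fold higher, 4.55 to 5.15), and its order was control-CM, PVAT-CM, PPAT-CM from low to high. ATG101, a subunit of the initiating kinase complex, was 3.11-fold higher (2.27 to 4.32), BECN1 2.14-fold (1.82 to 2.53) and TFEB, the lysosomal master factor, 2.02-fold (1.64 to 2.50). Of 41 autophagy genes 8 were at least 1.5-fold higher (19.5%) and 1 lower, with a median of 0.20. The protease CTSO had 59, 125 and 338 counts (4.73-fold, 3.57 to 6.34), and 6 of 41 lysosomal hydrolases were higher (14.6%, against 12.0% over all genes) and none lower, with a median of 0.16. Of 21 peroxidases, peroxiredoxins and superoxide dismutases 7 were higher (33.3%) and none lower, with a median of 0.26. PRDX1, a cytosolic peroxiredoxin, had 1942, 2503 and 5326 counts (2.26-fold, 2.15 to 2.38), and the selenoprotein MSRB1 509, 469 and 1406 (2.28-fold, 2.06 to 2.53). SOD2, the mitochondrial dismutase, was 3.39-fold higher (3.13 to 3.69) in the row used, which overlaps another annotated copy of the gene.

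Iron genes and the machinery of protein turnover held members on the higher side. FTH1, ferritin heavy chain, had 5705, 7778 and 26196 counts (3.79-fold higher, 3.68 to 3.90), and TFRC, the transferrin receptor, 606, 649 and 1448 (1.97-fold, 1.79 to 2.17). Of 32 constitutive proteasome subunits 8 were at least 1.5-fold higher (25.0%) and none lower, with a median of 0.29. PSMD7, a lid subunit, had 97, 121 and 269 counts (2.29-fold, 1.81 to 2.92), and PSMA5 770, 976 and 1870 (2.00-fold, 1.84 to 2.18). Of 74 mitochondrial ribosomal proteins 16 were higher (21.6%) and 2 lower (2.70%), with a median of 0.26; MRPS11 had 139, 195 and 394 counts (2.34-fold, 1.92 to 2.86). Among 45 genes of ribosome biogenesis 6 were higher and none lower, and the higher share (13.3%) was near that over all genes (12.0%). In that list NPM3, a nucleolar histone chaperone, was 2.99-fold higher (2.45 to 3.67). FTH1 has 23 processed pseudogenes named after it in the table, and genes with many such copies had higher ratios in general. The median log2 ratio was 0.03 for the 9375 protein-coding genes with no named copy, 0.13 for the 1257 with 1 to 3, 0.20 for the 238 with 4 to 9, and 0.26 for the 100 with at least 10, of which 26.0% were 1.5-fold higher. Without the cytosolic ribosomal proteins the last value was 0.30 for 57 genes. The part of shared reads in these ratios was not tested.

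**Figure D5:**
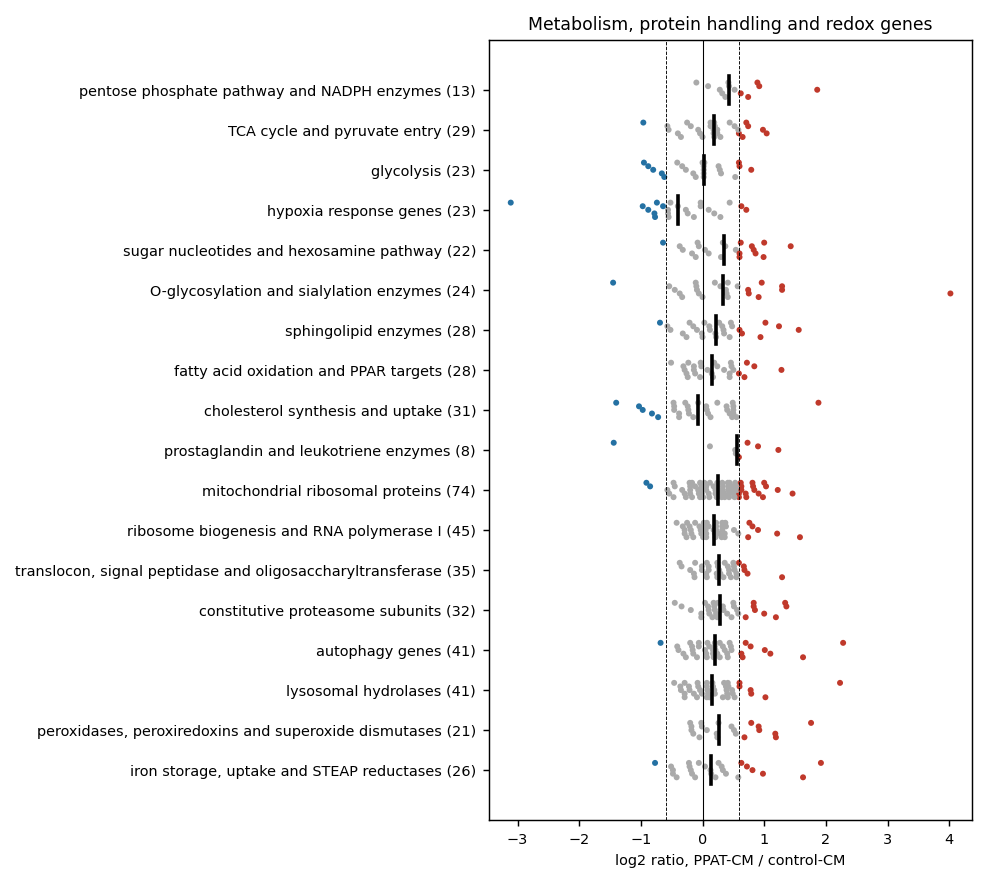
Log2 ratio of PPAT-CM to control-CM (x axis) for the measured members of 18 lists of metabolism, protein handling and redox genes (rows, number measured in parentheses), 1 point per gene, black bars for list medians and dashed lines at 1.5-fold. The hypoxia list has its median at -0.40 and the pentose phosphate and NADPH list at 0.43, and the proteasome and hydrolase lists hold no blue point beyond the 1.5-fold line.

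Most cell cycle genes lay within 1.5-fold, as did 79.3% of all genes. Of 40 cyclins, CDKs and their inhibitors 6 were higher (15%) and 1 lower (2.50%). The higher share was near that over all genes (12.0%), and the lower share was below it (8.71%). CDK4 had 184, 236 and 611 counts (2.74-fold higher, 2.32 to 3.25), CCNK, the partner of transcriptional kinases, 28, 61 and 133 (3.92-fold, 2.59 to 6.12), and CDKN1C, an inhibitor, 70, 61 and 42 (2.02-fold lower, 1.36 to 3.04). Of 34 DNA replication genes 3 were higher and 1 lower, the ligase LIG1, at 263, 237 and 148 counts (2.15-fold lower, 1.75 to 2.65). Chromatin modifiers (54 measured, 1 higher and 3 lower), splicing factors of the SR and hnRNP families (47 measured, 2 higher and 1 lower) and the zinc finger genes of chromosome 19 (171 measured, 9 higher and 9 lower) all held shares of higher and of lower genes below those over all genes. Within the splicing list SRSF9 stood apart at 707, 807 and 2223 counts (2.59-fold higher, 2.38 to 2.83).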

How the data were processed

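RNA of 3 LNCaP cultures, 1 per medium, was sequenced from KAPA mRNA HyperPrep libraries, per the labels' protocols. The authors deposited whole-number read counts per gene that were not normalized. The submitters' processing notes name GRCh38 and the tools HISAT2, featureCounts, edgeR, Trimmomatic and FastQC; versions, strand setting and treatment of reads with several positions were not given in the sources used here. Reads of overlapping or antisense genes may therefore have been counted together, and reads of near-identical copies split or dropped. Symbols came from a gene name table for 58472 of 58884 rows and from GENCODE release 29 for 390 of the rest, with GENCODE coordinates.

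Genes averaging 50 or more raw counts across the 3 libraries were kept. Some genes under 50 counts in both control-CM and PVAT-CM passed only through PPAT-CM, among them MMP7, BMP6, KCNMB4, KCNK5, TRPM8, ST6GAL1, SPHK1, HCP5 and PLXNA4. The minimum itself favoured such genes being counted as higher. Counts were scaled with TMM factors (edgeR 4.0.16, R 4.3.3; 0.917 for control-CM and 1.08 for PPAT-CM), and a ratio is the quotient of scaled counts. Its 95% interval is the exact conditional binomial (Clopper-Pearson) interval in scipy, covering counting error only. Log2 ratios carry a pseudocount of 0.5. With 1 library per medium no test was made and no p-value is given. The 6 kept genes with at most 3 counts in control-CM are counted in the lists, and no fold is given for them. Calculations were tested on simulated data.

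The comparison and the 95 lists (2825 genes, 2139 measured) were chosen with earlier results of these data known. Genes named were the 15 highest and 15 lowest ratios among protein-coding genes with at least 50 counts in both libraries, up to 5 members per list with the largest ratios past 1.5-fold and an interval excluding 1, the 8 largest gains and losses in CPM, and the luminal markers. Others were chosen after their values were seen, and some genes of the rule are not reported here. Alternatives were other scalings, including DESeq2 1.42.0 size factors, count minimums, pseudocounts, gene sets and thresholds.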

Additional observations from a re-analysis of the deposited data

How the results depend on the processing

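With 1 library per medium no library could be left out and no difference tested, so the ratios rest on counting error alone. No paired analysis was possible because each medium had 1 library and the comparison comes from no test. Against 482 genes at least 2-fold higher and 336 lower, total counts without TMM gave 905 and 177, a minimum mean count of 10 gave 936 and 877, a minimum of 200 gave 248 and 144, and no minimum gave 5023 and 4541. A threshold of 1.5-fold gave 1475 and 1068 and one of 3-fold 153 and 63. Protein-coding genes alone gave 444 higher and 202 lower. DESeq2 size factors, upper quartile factors, TMM without mitochondrial genes, a pseudocount of 5, intervals excluding 1, and 50 counts in both libraries kept both counts within 1.5 times. Total counts moved the median over all genes from 0.03 to 0.27 and reversed the sign of 25 of 86 list medians. Upper quartile factors reversed that of 12 others, 2 of which TMM without mitochondrial genes also reversed, and the medians of these 37 lists lay between -0.19 and 0.07. Genes under 50 mean counts were not assessed, and 3 counts correspond to 0.198 scaled CPM in control-CM and 0.163 in PPAT-CM.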

Other observations

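Divergent, antisense and LINC transcripts stood lower than the median gene as classes. Over all genes, 8.71% were at least 1.5-fold lower and 12.0% higher. Of 142 divergent transcripts, which start beside a coding gene and run the other way, 42 were at least 1.5-fold lower in PPAT-CM and 9 higher (median log2 ratio -0.23, against 0.03 over all genes). Antisense transcripts had 65 of 262 lower and 22 higher (median -0.21), and intergenic transcripts named LINC 28 of 107 lower and 8 higher (median -0.27). By total counts without TMM, which move every gene alike, the medians were 0.01, 0.03 and -0.03, against 0.27 over all genes. The 21 host genes of small nucleolar RNAs (named SNHG) did not follow, with 2 lower, 5 higher and a median of 0.06 by TMM. Among named long noncoding RNAs PCAT6, described in prostate cancer, had 492, 327 and 316 counts, in the order control, PVAT and PPAT medium (1.89-fold lower, 1.64 to 2.18), while HCP5, a transcript of the HLA region, had 23, 21 and 148 (5.31-fold higher, 3.41 to 8.63). All 15 mitochondrial tRNA genes that were measured were at least 1.5-fold lower (median -1.29), beside 2 of 2 mitochondrial rRNA genes.

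The RAB genes and the single genes that follow were chosen after their values were seen. Of 63 RAB genes, the small GTPases that direct vesicles, 17 were at least 1.5-fold higher and 1 lower (median log2 ratio 0.17), with RAB1B at 468, 572 and 1457 counts (2.57-fold higher, 2.31 to 2.86) and RAB27A, which docks secretory granules, at 58, 72 and 181 (2.57-fold, 1.91 to 3.52). The secreted proteins SLIT1 (70, 92 and 266 counts, 3.13-fold, 2.40 to 4.14) and NTN4 (85, 115 and 235, 2.28-fold, 1.77 to 2.96) and the semaphorin receptor PLXNA4 (9, 8 and 142, 13.0-fold, 6.67 to 29) were higher in PPAT-CM. GUCY1A1, a subunit of the nitric oxide receptor, had 769, 979 and 3586 counts (3.85-fold higher, 3.56 to 4.16). PRUNE2, whose intron hosts the prostate transcript PCA3, had 2452, 2832 and 9614 counts (3.23-fold, 3.09 to 3.38), and SESN3, a sestrin, 3928, 3732 and 11413 (2.40-fold, 2.31 to 2.49).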
